A study of Mus musculus with 6 samples.

Results

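The genes described here are 30 genes of the red blood cell lineage, read in RNA from collagenase digests of newborn mouse cartilage. They were chosen by name, as globin chains, haem and iron proteins, red cell membrane proteins, blood group antigens and erythroid regulators. The rule uses no measured value, but the list was drawn up with earlier results of these data known. Of the 30, 29 stood in the deposited table of 43346 genes, with Epb42 under its older name Epb4.2. Ahsp, the chaperone of alpha globin, was not matched and is not analysed here. Of the 29, 26 had enough counts to be tested, and Klf1, Car1 and Trim58 did not.

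Wild type and Girk3-null animals were compared, both on the C57BL/6 strain, 5 days old and labelled male, with 3 libraries of each that the series text calls biological replicates. Girk3, encoded by Kcnj9, is a subunit of G protein-gated potassium channels, and the labels name no promoter, Cre or tissue that would limit its loss. Immature chondrocytes of the epiphyses were released overnight by collagenase, washed and lysed, and polyadenylated RNA was sequenced. No sorting step or red cell lysis is described in the labels, and the labels name no other treatment. Col2a1, 1 of 10 chondrocyte markers read, was abundant, at 28900 to 88100 CPM in the 6 libraries. Markers of other cell types were also present and are given below. CPM are counts scaled to a common library total, with edgeR's TMM factors, and serve to compare libraries for 1 gene. RPKM are also divided by gene length and serve to compare genes. Each log2 fold change sets Girk3-null over wild type libraries.

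Total counts ranged from 34279516 to 60392837 per library, so a count of 0 allowed up to 0.0497 to 0.0875 CPM. Kcnj9 had 0 counts in all 6 libraries and could not check the genotype labels. Sex-linked transcripts went against the male label in 5 of the 6 libraries, which had 0 to 7 counts of 4 Y-linked genes and 67346 to 144825 counts of Xist. Girk3-null library 1 alone was in keeping with it, with 16088 and 19 counts. Sex and genotype are thus partly mixed in the Girk3-null group, and the comparison is also given without that library. All 37 mitochondrial genes were at 0 counts, so RNA quality was not assessed from them.

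Red cells arise in the marrow, and around birth also in liver and spleen, from nucleated erythroblasts that divide under erythropoietin and switch on globin, haem and membrane skeleton genes together. The transcription factors Gata1 and Klf1 bind the regulatory DNA of most of these genes. The nucleus is then expelled, and the young red cell, or reticulocyte, keeps its messenger RNA for a short time. Cartilage itself has no blood vessels, but the growing epiphysis lies against bone and marrow. In bulk RNA, fewer red cells and less RNA per cell cannot be told apart.

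Promoter sequences are shown for the 4 globin genes and for Alas2, the erythroid enzyme that starts haem synthesis, because these 5 genes varied together across libraries and the globin pairs are near copies of each other. Each runs 5′ to 3′ from 250 bases before to 50 bases after the listed start site (RefSeq, build GRCm38.p6). They are Hba-a1 at chr11:32283422-32283721 (plus strand), Hba-a2 at chr11:32296242-32296541 (plus strand), Hbb-bs at chr7:103827879-103828178 (minus strand), Hbb-bt at chr7:103813874-103814173 (minus strand) and Alas2 at chrX:150547167-150547466 (plus strand). Capitals mark matches on either strand to GATAA, the core of a GATA factor site, to CCNCNCCC, a CACCC-type site of the kind Klf1 reads, and to CCAAT. Adjacent or overlapping matches run together.
Hba-a1: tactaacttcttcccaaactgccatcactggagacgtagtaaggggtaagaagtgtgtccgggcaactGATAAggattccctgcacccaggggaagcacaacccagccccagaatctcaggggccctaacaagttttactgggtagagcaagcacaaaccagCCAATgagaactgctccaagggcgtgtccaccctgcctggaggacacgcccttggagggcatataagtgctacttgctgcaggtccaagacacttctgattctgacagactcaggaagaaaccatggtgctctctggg
Hba-a2: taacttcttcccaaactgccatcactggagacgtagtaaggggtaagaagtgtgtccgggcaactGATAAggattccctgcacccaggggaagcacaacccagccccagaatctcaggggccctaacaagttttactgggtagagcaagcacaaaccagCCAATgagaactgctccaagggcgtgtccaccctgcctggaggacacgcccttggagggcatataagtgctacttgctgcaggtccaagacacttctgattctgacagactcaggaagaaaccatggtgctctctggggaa
Hbb-bs: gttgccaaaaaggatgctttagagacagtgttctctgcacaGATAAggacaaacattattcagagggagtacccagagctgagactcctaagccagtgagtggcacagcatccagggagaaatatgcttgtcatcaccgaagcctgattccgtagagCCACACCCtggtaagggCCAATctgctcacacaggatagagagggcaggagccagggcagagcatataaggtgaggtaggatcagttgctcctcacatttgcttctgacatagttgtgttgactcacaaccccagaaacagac
Hbb-bt: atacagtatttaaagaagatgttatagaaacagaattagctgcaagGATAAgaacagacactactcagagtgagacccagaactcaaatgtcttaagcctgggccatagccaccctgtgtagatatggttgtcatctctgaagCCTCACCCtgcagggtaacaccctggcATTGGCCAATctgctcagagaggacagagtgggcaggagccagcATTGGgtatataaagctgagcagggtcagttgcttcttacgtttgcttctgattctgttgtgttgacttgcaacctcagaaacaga
Alas2: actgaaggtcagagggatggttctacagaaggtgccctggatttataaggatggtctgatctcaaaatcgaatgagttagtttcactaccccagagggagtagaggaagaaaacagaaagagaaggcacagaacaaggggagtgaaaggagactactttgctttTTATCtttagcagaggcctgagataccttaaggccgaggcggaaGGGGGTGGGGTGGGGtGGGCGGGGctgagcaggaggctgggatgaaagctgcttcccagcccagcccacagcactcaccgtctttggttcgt

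A GATAA match lay in 17 of the 25 promoter windows found for 22 erythroid genes, or 68%, against 25.4% of all 32851 promoter windows of the same length. CCNCNCCC lay in 60% of the erythroid windows against 49.5% of all windows, and CCAAT in 56% against 37.4%. In the alpha globin promoters the GATAA match began at -182 and -185, counted in bases from the start site, and in the beta globin promoters at -209 and -204. In Alas2 it lay on the opposite strand, from -86 to -82. The 5 genes whose windows held no GATAA were Add2, Gata1, Sptb, Tfrc and Tspo2. Slc4a1, Nfe2, Ank1, Cldn13, Car1, Slc25a37 and Fech had no entry in the promoter table. A match of letters is a description of the window and not a bound site.

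**Figure D1:**
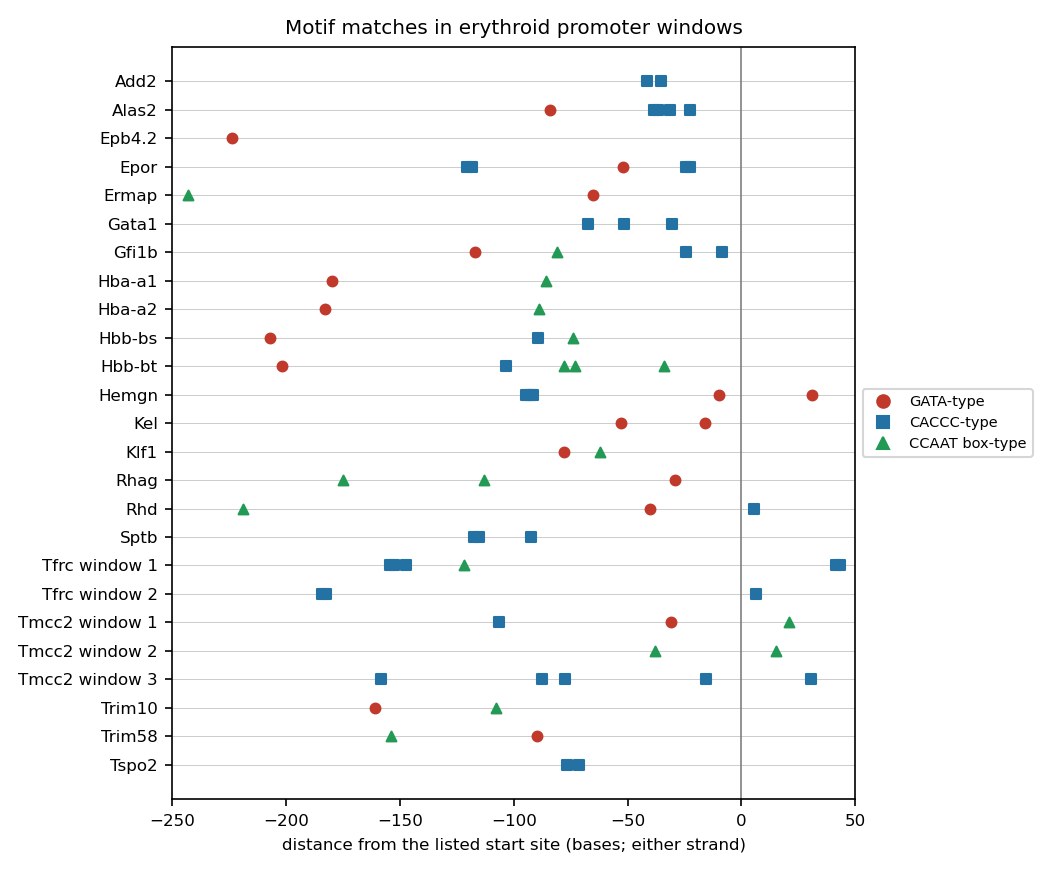
Matches to GATAA (red circles), CCNCNCCC (blue squares) and CCAAT (green triangles) in 25 promoter windows of 22 erythroid genes, by distance in bases from the listed start site on the x axis. GATAA matches stand in 17 of the windows. Those of the globin genes begin between -209 and -182, and the farthest upstream is that of Epb4.2 at -226.

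The sequences also bear on how far the globin copies could be counted apart. The promoters of Hba-a1 and Hba-a2 were 98% identical, and those of Hbb-bs and Hbb-bt 72.7%. Of the stretches of 50 bases in the Hba-a1 transcript (GENCODE M21), 67.5% also stood in Hba-a2, and 86.9% of those of Hba-a2 stood in Hba-a1. The figures were 65.8% for Hbb-bs in Hbb-bt and 58.3% in the other direction. How reads that fit both copies were counted is not given in the sources at hand. The level of each single globin gene is therefore uncertain, while the sum of a pair does not depend on how its reads were split, unless shared reads were dropped. Alas2 shares a stretch of chromosome X with Apex2, which had 3089 counts against 2219 for Alas2, and 13.8% of its transcript stretches stood in another gene's transcripts.

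Globin RNA was present in every digest at a low level, and its levels in the 2 genotypes overlapped. The 4 globin genes together took 0.0198%, 0.0258% and 0.00697% of all counts in wild type libraries 1, 2 and 3. They took 0.00503%, 0.0138% and 0.00772% in Girk3-null libraries 1, 2 and 3. Wild type libraries 1 and 2 and Girk3-null library 2 were thus the 3 high libraries. The summed level of the 4 genes was 165 ± 85.2 CPM in wild type and 91.8 ± 45.9 CPM in Girk3-null libraries (mean ± SD, n = 3 each), a ratio of 1.8, while it spanned 3.32-fold among the wild type libraries and 2.76-fold among the Girk3-null ones.

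Hbb-bs, an adult beta globin gene, was the most abundant erythroid transcript per length, at a mean of 93.1 RPKM. It measured 116, 146 and 43.8 CPM in wild type libraries 1 to 3 and 31.7, 82.6 and 50.6 CPM in Girk3-null libraries 1 to 3. Girk3-null libraries 2 and 3 stood above wild type library 3, so the groups overlapped (log2 fold change -0.89, standard error 0.45, adjusted p = 0.376 in edgeR). Hbb-bt, the other adult beta globin gene listed, measured 32.1, 43.8 and 8.98 CPM in wild type and 6.07, 19.9 and 10.4 CPM in Girk3-null libraries. Its high and low libraries were those of Hbb-bs but set farther apart, 7.21-fold from highest to lowest against 4.6-fold (log2 fold change -1.22, standard error 0.57, adjusted p = 0.355 in edgeR).

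The alpha globin genes Hba-a1 and Hba-a2 encode the partner chain of haemoglobin. Hba-a1 measured 23.0, 29.8 and 11.9 CPM in wild type and 8.61, 23.5 and 14.5 CPM in Girk3-null libraries. Hba-a2 measured 14.1, 19.5 and 7.2 CPM in wild type and 4.96, 15.5 and 6.89 CPM in Girk3-null libraries. Both were highest in wild type library 2 and lowest in Girk3-null library 1, and Girk3-null library 2 exceeded wild type library 1. Their log2 fold changes were -0.47 and -0.58, with standard errors of 0.4 and 0.46 and adjusted p-values of 0.579 and 0.553 in edgeR.

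Shares within the globin counts were not the same in all libraries. Alpha chains made up 20% and 20.6% of the globin counts in wild type libraries 1 and 2, with 95% Wilson intervals of 19.2 to 20.8% and 20 to 21.4%. In the 4 other libraries they made up 26% to 27.6%, and the lowest bound of an interval was 24.3%. Girk3-null library 2 was therefore high in globin but had the alpha share of the low libraries. The share of Hbb-bt in the beta globin counts was 21.6% and 23.1% in wild type libraries 1 and 2, 19.5% in Girk3-null library 2, and 16.1% to 17.1% in the 3 others. Hba-a2 made up 36.6% to 39.8% of the alpha counts in 5 libraries and 32.2% in Girk3-null library 3, whose interval of 28.8 to 35.8% overlapped those of 2 others. These intervals cover counting error only, compare libraries and not genotypes, and rest on reads that the near-identical copies partly share.

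**Figure D2:**
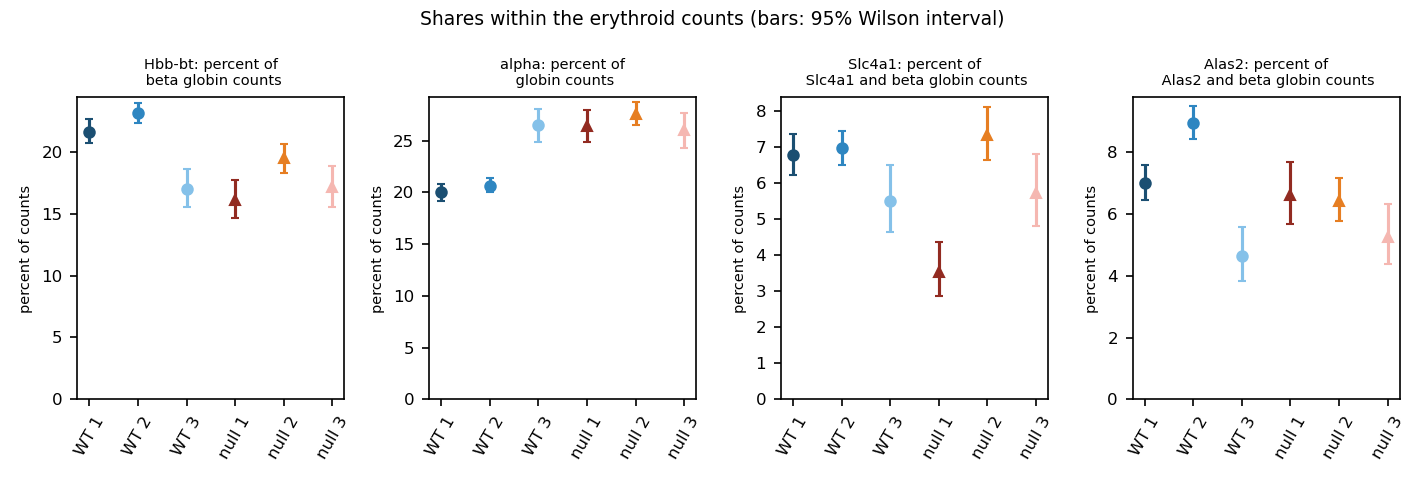
Percent of counts on the y axis for Hbb-bt among beta globin, alpha among all globin, and Slc4a1 and Alas2 against beta globin, in each of the 6 libraries (circles wild type, triangles Girk3-null; bars are 95% Wilson intervals of the counts). The alpha share is near 20% in wild type libraries 1 and 2 and 26% or more in the other 4 libraries.

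Globin genes of the embryo were nearly silent. Hbb-y, Hbb-bh1, Hbb-bh2 and Hbb-bh0, which include the embryonic beta-like chains, had 0 counts in all libraries, and Hba-x, the embryonic alpha-like chain, had 23 counts in all 6 together. The theta-like gene Hbq1b had 69 counts and a log2 fold change of -1.52 (adjusted p = 0.341 in edgeR). Of the 10 genes in this list of other globins, 4 had enough counts to be tested. None passed an adjusted p of 0.05 in edgeR, where 0.0057% of all tested genes did. Cygb, the cytoglobin of connective tissue, measured 2.18 to 4.04 CPM, with overlapping groups. Red cell globin counts thus lay almost wholly on the adult genes.

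Alas2 measured 11.2, 18.6 and 2.56 CPM in wild type libraries 1, 2 and 3. In the Girk3-null libraries it measured 2.67, 7.04 and 3.4 CPM. Wild type library 3 was the lowest of all 6, below every Girk3-null library, and the log2 fold change was -1.31 with a standard error of 0.63 (adjusted p = 0.366 in edgeR). Fech, which inserts iron into haem at the last step, did not share this pattern. It measured 21.3, 23.2 and 22.7 CPM in wild type and 30.2, 24.6 and 23.5 CPM in Girk3-null libraries, with every Girk3-null library above every wild type one and a log2 fold change of 0.22 (standard error 0.13, adjusted p = 0.436 in edgeR).

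Slc25a37, the mitochondrial iron importer mitoferrin 1, also lay apart from the globins. It measured 95, 93.8 and 130 CPM in wild type and 167, 98.6 and 146 CPM in Girk3-null libraries, so the 3 libraries highest in globin were its 3 lowest (log2 fold change 0.37, adjusted p = 0.414 in edgeR). Tfrc, the transferrin receptor that brings iron into most dividing cells, stood next to Hbb-bs per length, at a mean of 33.6 RPKM. It measured 225, 316 and 163 CPM in wild type and 138, 199 and 191 CPM in Girk3-null libraries. Its order was that of Hbb-bs, but over a range of only 2.29-fold (log2 fold change -0.42, adjusted p = 0.421 in edgeR). Tfrc and Slc25a37 together held 52.3% to 70.3% of all counts of the 29 genes, so a plain sum over the genes mostly reads these 2. Tspo2, a cholesterol-binding protein of erythroblasts, had 3 to 44 counts per library and overlapping groups.

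The genes of haem synthesis outside the 29 varied little. Of 11 such genes, all tested, 6 were lower and 5 higher in Girk3-null libraries, and their median log2 fold change was -0.01. None passed in edgeR or DESeq2, where 0.0057% and 1.94% of all tested genes did. Cpox, Tmem14c, Alas1 and Ppox had the highest mean CPM of them, and Cpox, an enzyme of the later steps, stayed between 39.1 and 47.3 CPM. Alas1, the form of the first enzyme used outside red cells, measured 28.2 to 33.7 CPM. Of 10 iron handling genes 6 were higher and 4 lower, with a median of 0.22 and none passing in either tool. In edgeR 3 of the 10 had an unadjusted p under 0.05, against 14.5% of all tested genes. Fth1, the ferritin heavy chain that stores iron, ranged from 2160 CPM in wild type library 1 to 4740 CPM in Girk3-null library 1, an order nearly opposite to that of the globins.

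**Figure D3:**
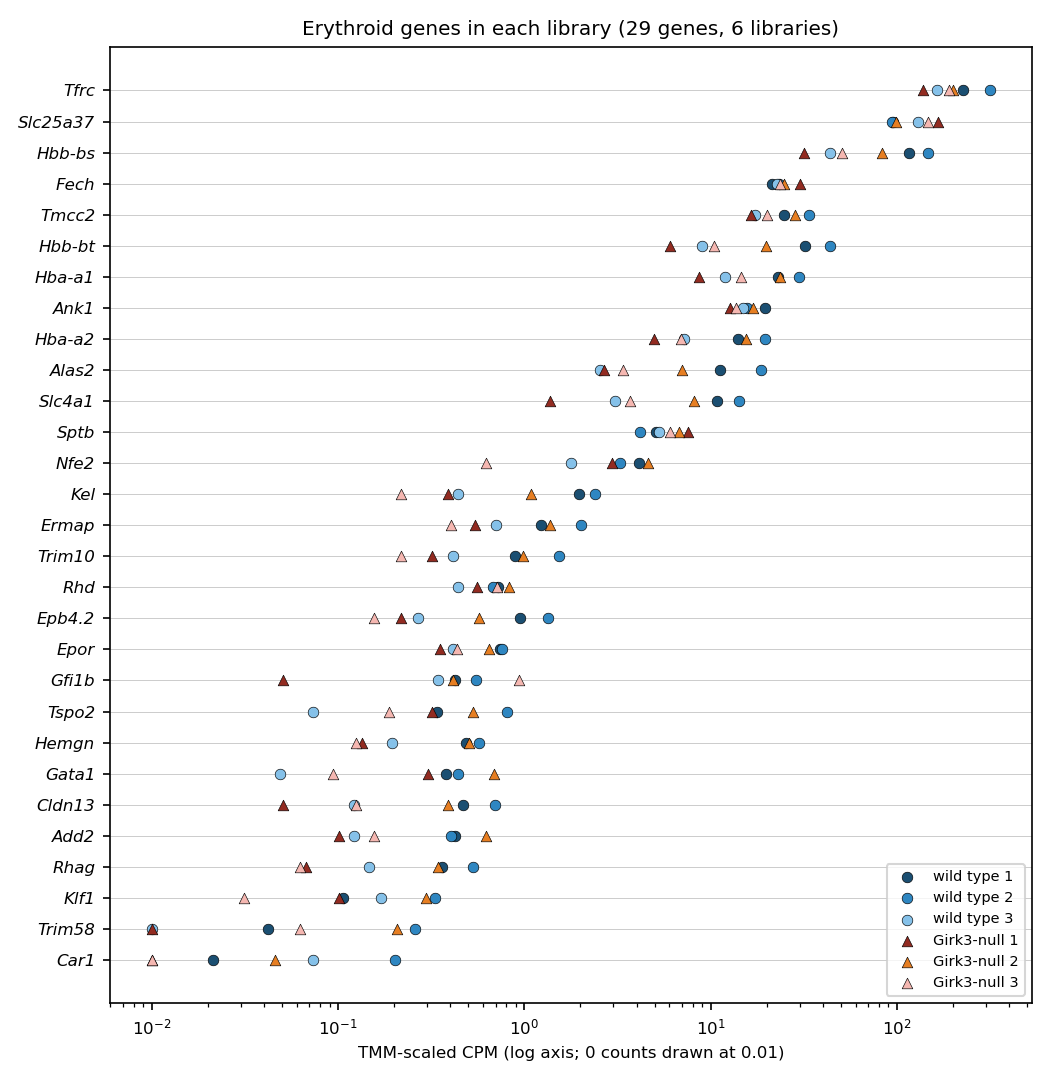
TMM-scaled CPM on a log x axis for 29 erythroid genes (rows, ordered by mean level) in the 3 wild type (circles) and 3 Girk3-null (triangles) libraries, with 0 counts drawn at 0.01. Most rows show wild type libraries 1 and 2 and Girk3-null library 2 to the right and the 3 other libraries to the left, while Slc25a37, Fech and Sptb do not.

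Among the genes of the membrane skeleton and its anchors, Slc4a1 and Epb4.2 had the widest spans between libraries. Slc4a1 encodes band 3, the anion exchanger to which the red cell skeleton is tied. It measured 10.8, 14.2 and 3.07 CPM in wild type and 1.38, 8.11 and 3.71 CPM in Girk3-null libraries, a 10.2-fold span in which Girk3-null library 1 was lowest (log2 fold change -1.1, standard error 0.66, adjusted p = 0.444 in edgeR). Against beta globin it also ran low in that library, at 3.54% of the Slc4a1 and beta globin counts (95% Wilson interval 2.86 to 4.37%), where the 5 others had 5.5% to 7.34%. Epb4.2, the band 4.2 protein that binds band 3, had 45, 73 and 11 counts in wild type and 13, 25 and 5 counts in Girk3-null libraries (log2 fold change -1.43, standard error 0.66, adjusted p = 0.354 in edgeR).

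Other membrane and skeleton genes spanned less or were scarce. Ank1, the erythroid ankyrin, stayed between 12.7 and 19.5 CPM in all libraries, a 1.54-fold span. Tmcc2, a membrane protein raised in late erythroblasts, ranged from 16.5 to 33.9 CPM. Sptb, the erythroid beta spectrin, measured 5.1, 4.16 and 5.3 CPM in wild type and 7.53, 6.72 and 6.02 CPM in Girk3-null libraries. It was one of 2 tested genes of the 26 whose groups did not overlap, the other being Fech, both higher in Girk3-null libraries, where 9.86% of all tested genes were so placed. None of the 26 lay wholly lower, against 10.2% of all tested genes. Its log2 fold change was 0.48 with a standard error of 0.18 and an unadjusted p of 0.0274, and it did not pass (adjusted p = 0.305 in edgeR). Add2, the beta adducin, had 5 to 27 counts per library, with 27 in Girk3-null library 2.

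The list of other red cell membrane genes was led by genes that many cells use. Slc2a1, Piezo1, Cd47 and Add1 had its 4 highest mean CPM, and Slc2a1, the glucose carrier also of chondrocytes, measured 850 to 1450 CPM. Of 15 tested members 12 were lower and 3 higher in Girk3-null libraries, and the median was -0.13. None passed in edgeR or DESeq2, where 0.0057% and 1.94% of all tested genes did.

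Blood group proteins were scarce but mostly followed the globins. Kel, the Kell antigen and a surface peptidase, had 93, 130 and 18 counts in wild type and 23, 47 and 7 counts in Girk3-null libraries, the most negative log2 fold change of the 26 tested genes (-1.5, standard error 0.7, adjusted p = 0.355 in edgeR). Ermap, an adhesion protein of erythroid membranes, ranged from 0.405 to 2.02 CPM. Rhag, the Rh-associated ammonia channel, had 2 to 29 counts, and Cldn13, a claudin of mouse erythroblasts, had 3 to 38. Rhd, the Rh antigen itself, did not follow. It had 34, 37 and 18 counts in wild type and 33, 36 and 23 counts in Girk3-null libraries, with a span of 1.88-fold and a log2 fold change of 0.18 (standard error 0.35, adjusted p = 0.828 in edgeR).

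The regulators of the lineage were near the limit of detection. Gata1, the master factor of red cells and platelets, had 18, 24 and 2 counts in wild type and 18, 30 and 3 counts in Girk3-null libraries. Klf1, the factor that switches on adult beta globin, had 5, 18 and 7 counts and 6, 13 and 1 counts, too few to be tested. Gfi1b, a repressor used in red cells and megakaryocytes, was highest in Girk3-null library 3 with 30 counts and lowest in Girk3-null library 1 with 3. This order matched no globin gene.

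Set against the globin counts, the share of these 3 regulators turned on which of them was counted. Together they had 0.488% and 0.552% of the summed regulator and globin counts in wild type libraries 1 and 2, and 0.775% in wild type library 3. In Girk3-null libraries 1, 2 and 3 they had 0.88%, 0.978% and 1.27%, with Wilson intervals of 0.606 to 1.28%, 0.762 to 1.25% and 0.91 to 1.77%. Those of wild type libraries 1 and 2, 0.363 to 0.657% and 0.438 to 0.694%, lay below the intervals of Girk3-null libraries 2 and 3. In Girk3-null library 3, 30 of the 34 regulator counts were Gfi1b. Gata1 and Klf1 alone had 0.262%, 0.323% and 0.305% in wild type and 0.783%, 0.691% and 0.151% in Girk3-null libraries, so that library went from the highest share to the lowest. Gata1 and Gfi1b are also genes of megakaryocytes. The summed platelet and megakaryocyte markers, 12 genes, stayed between 118 and 130 CPM in all libraries. Of the 11 tested, 9 were higher and 2 lower in Girk3-null libraries, with a median log2 fold change of 0.35. Of all tested genes, 48.2% were lower. The part of these markers in the regulator share was not tested.

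Nfe2, which with its partners drives globin and platelet genes, had the highest level of the factors per length, at a mean of 0.984 RPKM. It measured 4.11, 3.27 and 1.78 CPM in wild type and 2.97, 4.63 and 0.624 CPM in Girk3-null libraries, the highest and the lowest both being Girk3-null (log2 fold change -0.14, standard error 0.59, adjusted p = 0.923 in edgeR). Epor, the erythropoietin receptor, had 14 to 41 counts and a 2.13-fold span. Of 16 other erythroid regulators 8 were lower and 8 higher in Girk3-null libraries, with a median log2 fold change of 0. None passed in edgeR, where 0.0057% of all tested genes did. At an unadjusted p under 0.05 in edgeR there were 5 of the 16, against 14.5% of all tested genes. DESeq2 called 1 of them, Kit, against 1.94% of all tested genes. Kit, the stem cell factor receptor of early blood cells, measured 18.1, 25.6 and 16.4 CPM in wild type and 2.94, 9.63 and 9.48 CPM in Girk3-null libraries, without overlap (log2 fold change -1.46, adjusted p = 0.014 in DESeq2 and 0.291 in edgeR). Kit was named after its values were seen, and 10.2% of all tested genes also lay wholly lower in Girk3-null libraries. The regulators highest in CPM, Jak2, Lmo4, Ldb1 and Stat5b, are used by many cell types. Of 18 late red cell enzymes and clearance genes 9 were lower and 9 higher, with a median of 0.03. None passed in edgeR and 1, Isg20, in DESeq2 (log2 fold change 0.98, adjusted p = 0.0233), also named after its values were seen. Bnip3l, Ube2o, Foxo3 and Mxi1 led that list, and Bnip3l, which clears mitochondria from reticulocytes, stayed between 225 and 307 CPM.

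The remaining erythroid proteins were read at low counts. Hemgn, a nuclear protein of blood progenitors, had 23, 31 and 8 counts in wild type and 8, 22 and 4 in Girk3-null libraries. Trim10, a ubiquitin ligase of terminal erythroid cells, had 42, 83 and 17 counts in wild type and 19, 43 and 7 in Girk3-null libraries. In both, wild type libraries 1 and 2 and Girk3-null library 2 were the 3 highest. Car1, the red cell carbonic anhydrase, had 0 to 11 counts and Trim58, which acts before the nucleus is expelled, 0 to 14, each with 0 in 2 libraries.

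Between genotypes, none of the 26 tested erythroid genes passed an adjusted p of 0.05 in edgeR, where 0.0057% of all 17554 tested genes, or 1 gene, did. That gene is Car8, a carbonic anhydrase-related protein, named here because it is the sole call. At an unadjusted p under 0.05 there were 0 lower and 1 higher (Sptb), against 7.02% lower and 7.49% higher over all tested genes. DESeq2 also called 0 of the 26, of which 17 were given an adjusted p. Over all 17554 tested genes, with or without a DESeq2 adjusted p, it called 1.94%. Of the 26 genes 21 had a negative and 5 a positive log2 fold change, where 48.2% of all tested genes were negative, and their median was -0.45 against 0.014 over all genes. The 21 include Gfi1b, whose value rounds to 0 (standard error 0.64, unadjusted p = 0.998 in edgeR). Genes read in the same libraries are not separate observations of the genotype. The groups of 27 of the 29 genes overlapped.

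Single libraries moved the size of this difference. Without Girk3-null library 1, the library with male transcripts, 20 of 27 tested erythroid genes were negative, their median was -0.23, and 0 passed in edgeR (0 at an unadjusted p under 0.05; 0% of all genes passed). Without Girk3-null library 2, the median was -1.05, and 12 of 26 were lower at an unadjusted p under 0.05, against 5.9% of all tested genes, yet none passed (lowest adjusted p 0.366 in edgeR). The median was -0.24 when wild type library 2 was left out and -0.72 when wild type library 3 was. On log2(RPKM + 1) in limma it was -0.16.

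**Figure D4:**
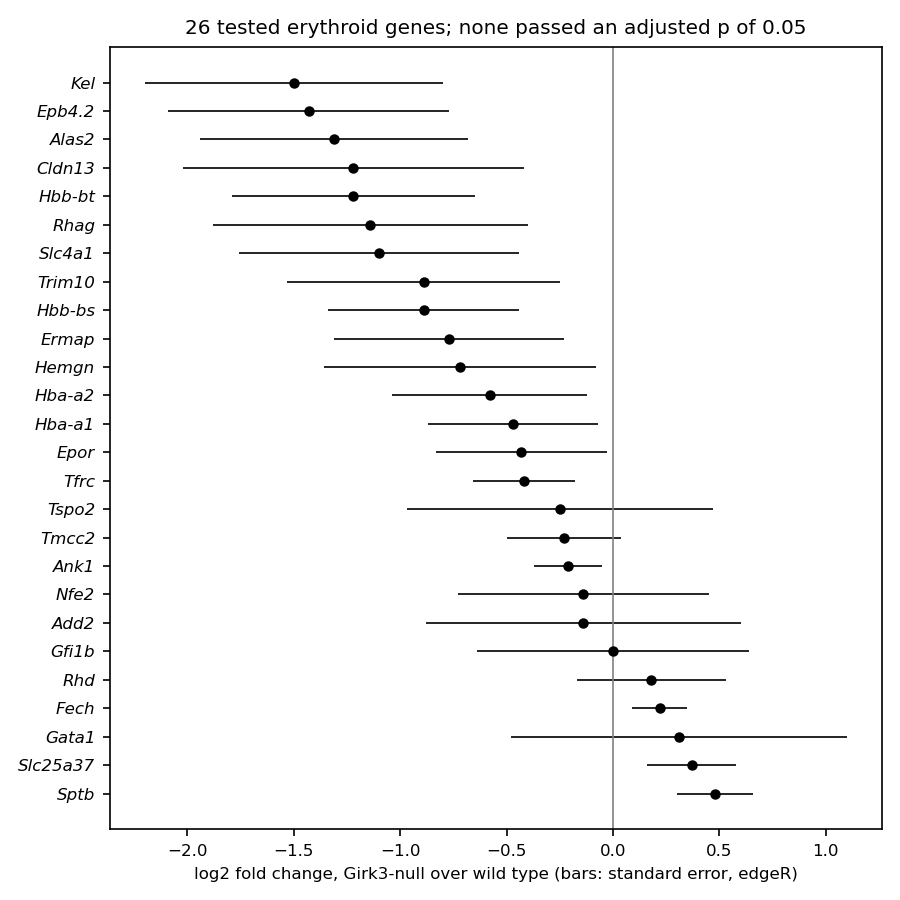
Log2 fold change of Girk3-null over wild type on the x axis for the 26 tested erythroid genes (points; bars are standard errors from edgeR). The genes run from Kel at -1.5 to Sptb at 0.48, and none passed an adjusted p of 0.05.

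What most of the genes shared was the set of 3 highest libraries, which did not follow genotype. The order within and below that set differed between genes. In 21 of 26 tested genes the 3 highest libraries were wild type libraries 1 and 2 and Girk3-null library 2, a set chosen after the values were seen, and this held for 9.5% of all tested genes. The highest library was wild type library 2 for 20 of the 29 genes, and the lowest was Girk3-null library 1 for 13 and Girk3-null library 3 for 8. The median span from highest to lowest library was 5.55-fold for the tested erythroid genes and 1.63-fold for all tested genes. Likewise their median biological coefficient of variation, edgeR's spread between replicates beyond counting noise, was 0.481 against 0.183. These comparisons were not matched for count level, and 13 of the 29 genes had under 200 counts in all libraries together. Among genes with many counts, Fech spanned 1.41-fold and Tfrc 2.29-fold, but Hbb-bs 4.6-fold and Hbb-bt 7.21-fold. The tested genes with another set of 3 highest libraries were Rhd, Sptb, Gfi1b, Slc25a37 and Fech.

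Other blood and tissue markers were measured beside them. The B lineage list had the same 3 highest libraries by its sum, from 25.1 CPM in Girk3-null library 1 to 43.5 CPM in wild type library 2, and 5 of its 10 tested genes did so singly; Ebf1, which stromal cells also express, took 22.8 CPM of the 30.4 in wild type library 1. Of the 11 tested neutrophil genes 5 also had these 3 highest libraries, as did 9.5% of all tested genes. The neutrophil sum ran otherwise, from 989 CPM in wild type library 2 to 3050 in Girk3-null library 1. Lcn2, which chondrocytes can also make, held most of that sum, with 2750 CPM in Girk3-null library 1. S100a9, a neutrophil protein, measured 317, 193 and 106 CPM in wild type and 170, 309 and 39.3 CPM in Girk3-null libraries.

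The macrophage sum ranged from 122 to 235 CPM and was highest in Girk3-null library 1, with 7 of 10 tested genes lower and 3 higher by fold change. For neutrophil genes it was 6 lower and 5 higher, and for B lineage genes 5 and 5. Endothelial markers summed to 157, 208 and 125 CPM in wild type and 32.9, 91.4 and 101 CPM in Girk3-null libraries, so here every wild type library was above every Girk3-null one. Skeletal muscle markers summed to 70.9, 54.6 and 32.8 CPM in wild type and 28.9, 18.9 and 27.9 CPM in Girk3-null libraries, again without overlap. Of the tested genes, 9 of 10 endothelial and 8 of 10 muscle genes had a negative fold change. Chondrocyte markers ran the other way, lowest in wild type libraries 2 and 1, at 48700 and 62500 CPM, and highest in Girk3-null libraries 3 and 2, at 117000 and 106000 CPM, and 9 of 10 had a positive fold change. Osteoblast markers summed to 10200 to 23300 CPM, most in Girk3-null library 1, with 7 of 8 positive. Girk3-null library 2 was thus high in both globin and chondrocyte markers. No marker of these lists was at 0 in all libraries. None of the genes in these lists passed in edgeR, where 0.0057% of all tested genes did. DESeq2, which called 1.94% of all tested genes, called none of the platelet, macrophage and B lineage genes and 1 neutrophil gene, Lcn2. It called 4 endothelial genes (Kdr, Egfl7, Cldn5 and Tek), 4 muscle genes (Mylpf, Myl1, Tnnc2 and Ckm), 3 chondrocyte genes (Cnmd, Matn1 and Matn3) and 4 osteoblast genes (Alpl, Ibsp, Dmp1 and Bglap2), named here after their values were seen. The part of these cell types in the erythroid values was not tested.

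**Figure D5:**
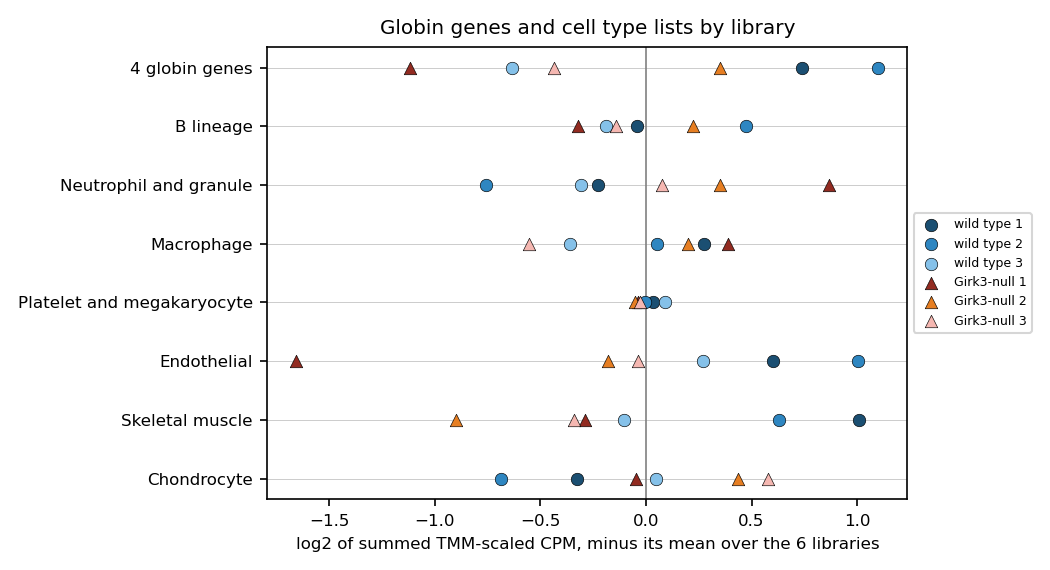
Log2 of the summed TMM-scaled CPM of the 4 globin genes and of 7 cell type lists, minus its mean over the 6 libraries, on the x axis (circles wild type, triangles Girk3-null). Globin is highest in wild type libraries 2 and 1 and Girk3-null library 2, and endothelial markers put all 3 Girk3-null libraries below the wild type ones.

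The genes outside the list with the profile most like the mean of the tested erythroid genes were Cytl1, Parvg, Ube2l6, Tmem229b, Rasgrp2, Trim66, Peg10, Ikzf1, Ccl7, Lgals9, Fat3 and Tmod2. Likeness was the root mean square difference of centred log2 CPM over the 6 libraries, taken among 12854 genes whose mean log2 CPM was 1 or more. It was 0.054 for Cytl1 and 0.203 for Tmod2, and among the erythroid genes themselves it ran from 0.164 for Hba-a2 to 0.986 for Gfi1b. Cytl1, a secreted protein of cartilage, measured 69.0, 93.1 and 36.3 CPM in wild type and 33.0, 73.1 and 33.8 CPM in Girk3-null libraries. Ube2l6, a ubiquitin-like conjugating enzyme abundant in late red cells, and Ikzf1, a factor of blood cells, also stood in this group. Ube2l6 belongs to the list of late red cell enzymes and clearance genes described above. Of the 18 tested genes of that list, 2 had wild type libraries 1 and 2 and Girk3-null library 2 as their 3 highest.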

How the data were processed

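RNA was measured in 6 libraries, 3 wild type and 3 Girk3-null, grouped by the genotype label and numbered in deposit order. The deposited table holds raw gene counts and RPKM values, per the file headers. The authors scaled RPKM by gene length and library total, per the labels' protocols. The submitters' processing notes name bcl2fastq 2.19.0, STAR 2.5.2b and build mm10. For the counting tool, annotation and strand setting: not given in the sources used here.

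Members were found by gene name. Genes were tested with edgeR 4.0.16 in R 4.3.3 (quasi-likelihood F-test, genotype alone, TMM), on the 17554 genes that filterByExpr kept (count minimum 10, total minimum 15). P-values were adjusted by Benjamini-Hochberg over all of them, with a threshold of 0.05. DESeq2 1.42.0, limma 3.58.1 (voom, and log2 RPKM with pseudocounts of 0.1 and 1), other scalings and filters, a title number term and leaving out each library were the alternatives. The test was tested on simulated data. Members and lists were chosen with earlier results of these data known. Named beside them were up to 4 genes with the highest mean CPM of a list where it is described, and the 12 genes nearest in profile. Of 167 genes in the other lists, 165 were found, and Hbb-b1 and Hbb-b2 were not matched. Positions of promoters are RefSeq's, in GRCm38.p6. The labels do not say how litters or days were shared, so p-values measure the spread between these libraries. Counts of same-group libraries differed by more than counting error (chi-square over its degrees of freedom 26.3 to 138.2). Totals of 34279516 to 60392837 counts per library set the precision.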

Additional observations from a re-analysis of the deposited data

How the results depend on the processing

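No erythroid gene passed in any of the 16 alternatives, and the lowest adjusted p of a member was 0.0781, for Alas2 in edgeR without wild type library 3. Members at an unadjusted p under 0.05 numbered 1 in the main fit and 0 to 13 over the alternatives. They numbered 3 in DESeq2, 5 with library totals only, 8 with no filter, 9 without wild type library 3 and 13 without Girk3-null library 2. The share of all tested genes was 14.5% in the main fit. Without Girk3-null library 2, 12 members were lower at this threshold, against 5.9% of all tested genes. For the other alternatives the share was not counted, so their counts cannot be read as particular to the members. The number of all genes called was 1, and it was 340 in DESeq2, 53 with no filter, and 0 in limma-voom, with library totals only, on log2(RPKM + 0.1) and log2(RPKM + 1), and with a title number term; leaving out 1 library gave 0 to 74, with 74 without wild type library 3, 1 without wild type library 1 and 0 without each of the others. The tested members lower in Girk3-null numbered 21. They numbered 20 in DESeq2 and limma-voom, 19 with the title number term, 24 with no filter, 17 to 24 when 1 library was left out, and 10 of the 13 left when the mean log2 CPM had to reach 1, which tests fewer genes. The members' median stayed negative throughout, from -1.05 to -0.16. Library totals only shifted the median of all genes by -0.107. Of 403 member values under alternatives, 384 kept their direction and 19, in 7 genes, reversed; the cause was not tested. Gfi1b stood at 0 in the main fit, with a standard error of 0.64, so its sign there carries no direction. DESeq2 turned Gfi1b to 0.05, limma-voom turned Tspo2 to 0.14, and the title number term turned Nfe2 to 0.12 and Tspo2 to 0.31. The other reversals came from leaving out 1 library, where the values ran from -0.01 to 0.33 for Rhd, -0.48 to 0.74 for Gata1, -0.99 to 0.58 for Gfi1b, -0.73 to 0.31 for Nfe2, -1.35 to 0.31 for Add2, -0.72 to 0.73 for Tspo2 and -0.47 to 0.04 for Tmcc2. No paired analysis was possible because the labels give the groups no shared replicate numbers. Depth limits the scarce genes: 13 of 29 members had under 200 counts in all libraries together.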
